A study of Mus musculus with 15 samples.

Results

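The transcripts described here are those of 10 nuclear receptors with known roles in the liver: Nr1h4, Nr0b2, Nr5a2, Nr1i2, Nr1i3, Nr1h3, Rxra, Rora, Nr3c1 and Esr1. They were taken as the probes that carried one of these gene names on an Agilent 1-colour mouse array, which gave 17 probes of the 41174 on the array and 10 of its 27343 gene names. The study measured total RNA of expandable hepatocytes, liver cells taken from 3 mice and grown for 21 days, and of freshly isolated hepatocytes. The groups were mHep (7 arrays), eHep (7 arrays) and primary hepatocytes (1 array). The eHep cells were kept in expansion medium, and mHep was taken to mean the same cells in differentiation medium, since the labels did not spell the name out. Each medium had 3 arrays of mouse 129S1-No1, 3 of mouse C57B6-No1 and 1 of mouse 129S1-No2, and the primary cells were isolated by collagenase perfusion from C57B6 mice of unstated number. For 129S1-No2 the mHep array went by its title, because its source name read eHep. No source said that the arrays of 1 mouse came from separate cultures, so they were averaged and the mouse was the replicate.

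Nuclear receptors are transcription factors that bind small lipophilic molecules and switch target genes on or off. FXR (Nr1h4) senses bile acids and induces the small partner SHP (Nr0b2), which lacks a DNA-binding domain and represses other receptors, among them LRH-1 (Nr5a2) at bile acid synthesis genes. PXR (Nr1i2) and CAR (Nr1i3) sense drugs and other foreign compounds, LXRα (Nr1h3) senses oxysterols, and all of FXR, PXR, CAR and LXRα bind DNA with RXRα (Rxra) as partner. RORα (Rora) binds DNA as a monomer and acts on the clock and on lipid genes, the glucocorticoid receptor (Nr3c1) drives gluconeogenic genes, and the estrogen receptor ERα (Esr1) is the main estrogen receptor of hepatocytes.

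Levels below are log2 processed signals from which the array's 75th percentile was subtracted, so 0 is a probe at that percentile. A level belongs to 1 probe, and levels of different genes were not set against each other. A reading that the scanner software did not call well above background is a bound and not a level. The software called 48.8% to 61.9% of probes well above background per cultured array and 36.3% on the primary array, and it called none saturated. The lowest signal called well above background lay between -5.92 and -3.73 on the cultured arrays and at -2.12 on the primary array.

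The cultured cells differed from the primary array in markers of several cell types. All 6 hepatocyte markers, Hnf4a among them, were above background on every mHep array and on the primary array, against 2 to 5 of 6 on the eHep arrays. Their summed level, on the log2 scale, was 7.99 to 10.27 in mHep, 0.59 to 3.05 in eHep and 13.1 on the primary array. The biliary keratin genes Krt7 and Krt19 were above background on all cultured arrays and not on the primary array, and the summed level of the 5 biliary markers was 7.22 to 9.73 in mHep, 8.07 to 9.27 in eHep and 2.4 on the primary array. The Kupffer cell markers Adgre1 and Clec4f and the endothelial marker Cdh5 were above background on the primary array and on no cultured array. The Kupffer marker Cd68 was above background on every cultured array and not on the primary array, and Csf1r was above background on all 15 arrays. The other endothelial markers did not follow Cdh5. Stab2 was above background on all 15 arrays, and Kdr on 2 mHep arrays, 3 eHep arrays and the primary array. Lyve1 was so on 1 mHep array only and Pecam1 on none. The summed level of the 6 Kupffer markers was -1.71 to -0.07 in mHep, -2.58 to 1.47 in eHep and 1.84 on the primary array, and that of the 5 endothelial markers -3.45 to -1.33 in mHep, -3.99 to -1.32 in eHep and 1.63 on the primary array. Of the 6 stellate markers, 1 to 2 were above background on mHep arrays, 1 to 3 on eHep arrays and 1 on the primary array, with summed levels of -2.83 to 3.29, -2.97 to 0.33 and 2.3 in the same order. Their part in the results on the receptors was not tested. In these mixed RNA samples, fewer cells of a type and less RNA per cell cannot be told apart.

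The start regions of Nr1h4, Nr5a2 and Rora, whose transcripts were higher in mHep, are shown beside that of Nr0b2, for which no difference between media passed the test. They are RefSeq promoter windows of 300 bases in GRCm38.p6, at chr10:89506609-89506908 (minus strand) for Nr1h4, chr1:136960399-136960698 (minus strand, the upstream start) for Nr5a2, chr9:68653536-68653835 (plus strand) for Rora and chr4:133553126-133553425 (plus strand) for Nr0b2. Capitals mark matches, on either strand, to AGGTCA (the hexamer many nuclear receptors bind), TCAAGG (the core bound by NR5A receptors such as LRH-1), GTTAAT (part of the site of the liver factor HNF1) or TATAAA (the TATA box). The first and second of these share letters where TCAAGG runs on into TCA.
Nr1h4: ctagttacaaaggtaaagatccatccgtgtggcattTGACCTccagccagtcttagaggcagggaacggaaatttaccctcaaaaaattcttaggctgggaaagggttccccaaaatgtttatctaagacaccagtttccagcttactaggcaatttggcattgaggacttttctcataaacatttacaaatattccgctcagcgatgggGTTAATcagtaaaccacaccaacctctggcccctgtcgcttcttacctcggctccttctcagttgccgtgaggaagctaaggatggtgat
Nr5a2: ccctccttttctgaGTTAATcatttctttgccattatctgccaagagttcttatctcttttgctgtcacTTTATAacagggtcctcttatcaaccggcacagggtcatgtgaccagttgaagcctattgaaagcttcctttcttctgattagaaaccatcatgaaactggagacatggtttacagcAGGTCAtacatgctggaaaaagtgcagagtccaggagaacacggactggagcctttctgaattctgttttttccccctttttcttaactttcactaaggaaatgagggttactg
Rora: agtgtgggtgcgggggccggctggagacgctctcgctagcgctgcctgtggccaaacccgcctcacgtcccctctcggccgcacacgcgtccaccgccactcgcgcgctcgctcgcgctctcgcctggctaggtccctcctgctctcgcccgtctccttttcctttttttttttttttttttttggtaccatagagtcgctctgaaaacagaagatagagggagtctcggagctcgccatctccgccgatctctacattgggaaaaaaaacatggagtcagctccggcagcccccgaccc
Nr0b2: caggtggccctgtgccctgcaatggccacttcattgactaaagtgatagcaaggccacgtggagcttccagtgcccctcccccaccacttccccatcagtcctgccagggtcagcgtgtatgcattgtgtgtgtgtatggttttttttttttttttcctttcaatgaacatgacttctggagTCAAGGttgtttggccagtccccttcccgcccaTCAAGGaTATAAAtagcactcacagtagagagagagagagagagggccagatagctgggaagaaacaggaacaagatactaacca
The Nr1h4 window held 1 AGGTCA and 1 GTTAAT, read on either strand. The Nr5a2 window held 1 AGGTCA, 1 GTTAAT and 1 TATAAA, and the Rora window held none of the 4 motifs. The Nr0b2 window held 2 copies of TCAAGG, 1 of them just upstream of a TATAAA. Of all 32851 RefSeq promoter windows of this length, 16.3% held AGGTCA, 14.4% TCAAGG, 7.1% GTTAAT and 13.6% TATAAA. A match describes letters in the window and does not show a bound site. The 9 members searched had 13 such windows, and in the others Esr1 held 1 TCAAGG and Rxra 2 AGGTCA, each at its second listed start.

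The first comparison asked which receptors differed between the differentiation and the expansion medium in the same mice. Nr1h4, Nr5a2 and Rora were higher in mHep than in eHep in each of the 3 mice, at 9.05-fold, at least 23.0-fold and at least 10.1-fold. No member was lower. Of the 10 members, 8 were bright enough to test, each of them in eHep as well as in mHep, and 3 of 8 were higher. Of the 14596 genes tested, 1.83% were called, 1.38% higher and 0.452% lower. The median difference was 2.34 on the log2 scale over the 8 members and -0.095 over all genes tested. Nr1i3 and Esr1 were too dim in both media to test. The lowest of the 7 mHep arrays lay above the highest of the 7 eHep arrays for Nr1h4, Nr5a2, Nr1i2 and Rora, which was so for 2.75% of all genes tested, while 2.86% lay wholly below.

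**Figure D1:**
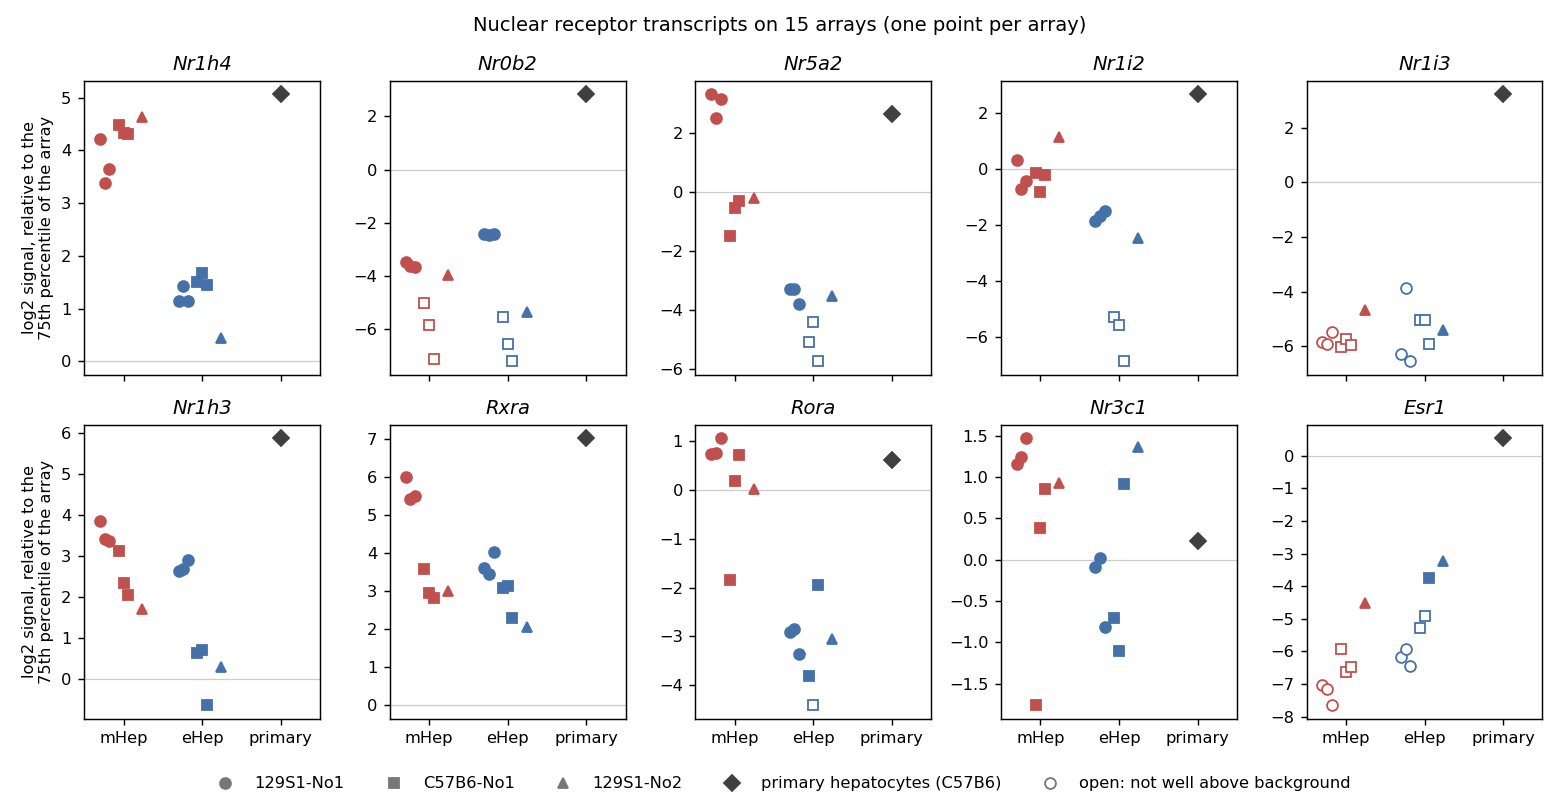
Level of each receptor on each of the 15 arrays, in log2 units around the 75th percentile of that array, with mHep, eHep and primary hepatocytes from left to right. Symbols give the mouse and open symbols mark readings not well above background. The mHep points of Nr1h4, Nr5a2, Nr1i2 and Rora all lie above the eHep points, while Nr1i3 and Esr1 lie far below the primary array in both media.

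Nr1h4 encodes FXR and was above background on all 15 arrays. Its level on the 7 mHep arrays ran from 3.38 to 4.63 with a median of 4.31, against 0.44 to 1.68 with a median of 1.42 on the 7 eHep arrays and 5.06 on the primary array. Mouse 129S1-No1 averaged 3.75 in mHep and 1.24 in eHep, C57B6-No1 4.37 and 1.54, and 129S1-No2 4.63 and 0.44. The mHep values sat close to the primary array and the eHep values well under it, with no overlap between media. The mean was 4.25 ± 0.45 in mHep and 1.07 ± 0.57 in eHep (SD, n = 3 mice), a log2 difference of 3.18 ± 0.47 (SE) with an adjusted p of 0.0374 by limma.

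Nr0b2 encodes SHP, a textbook FXR target, and did not follow Nr1h4. Its level on the mHep arrays ran from -7.12 to -3.48 with a median of -3.97, against -7.22 to -2.41 with a median of -5.36 on the eHep arrays and 2.83 on the primary array. The media overlapped, and the mice differed more than the media did. The probe was above background on all 4 arrays of the 129S1 mice in each medium and on 0 of 3 C57B6-No1 arrays in each medium, although the primary cells, also of C57B6 origin, were bright. In 129S1-No1 the level was -3.59 in mHep and -2.43 in eHep, and in 129S1-No2 it was -3.97 in mHep and -5.36 in eHep, so the differences of the 129S1 mice had opposite signs. The log2 difference was 0.22 ± 0.56 (adjusted p = 0.901).

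Nr5a2 encodes LRH-1, which supports bile acid synthesis genes and is a receptor that SHP represses. Its level on the mHep arrays ran from -1.51 to 3.30 with a median of -0.20, against -5.75 to -3.31 with a median of -3.80 on the eHep arrays and 2.65 on the primary array. All 7 mHep arrays and 4 of 7 eHep arrays were above background, and the 3 dark arrays were those of C57B6-No1. The mHep level of 129S1-No1, at 2.98, lay above the primary array, while those of C57B6-No1 and 129S1-No2, at -0.80 and -0.20, lay below it. The mean was 0.66 ± 2.03 in mHep and -4.03 ± 0.92 in eHep (SD, n = 3 mice), a log2 difference of 4.68 ± 0.65 (adjusted p = 0.0316). With normexp background correction the difference was 3.09 and no longer called (adjusted p = 0.0514).

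The xenobiotic sensors differed from each other. Nr1i2, the gene of PXR, had levels of -0.84 to 1.13 with a median of -0.22 on the mHep arrays, against -6.87 to -1.50 with a median of -2.48 on the eHep arrays and 2.65 on the primary array. It was above background on 7 mHep arrays and on 4 eHep arrays, again all but those of C57B6-No1. Each mouse was higher in mHep, by 1.38 (129S1-No1), 5.50 (C57B6-No1) and 3.61 (129S1-No2) on the log2 scale, which gave a mean level at least 8.37-fold higher. The spread among these differences left the fit at 3.50 ± 0.78 with an adjusted p of 0.103, not a call. With single arrays as samples the difference was 3.47 (adjusted p = 0.000736), a fit in which arrays of 1 mouse count as separate.

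Nr1i3, the gene of CAR, was close to dark in culture. Its readings were -6.01 to -4.67 with a median of -5.85 on the mHep arrays and -6.55 to -3.85 with a median of -5.40 on the eHep arrays, against 3.22 on the primary array. Only the array of 129S1-No2 was above background in mHep, and likewise in eHep. The media overlapped, with all but these arrays dark.

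Nr1h3, the gene of LXRα, was above background on all 15 arrays. Its level on the mHep arrays ran from 1.70 to 3.87 with a median of 3.12, against -0.64 to 2.91 with a median of 0.72 on the eHep arrays and 5.88 on the primary array. Each mouse was higher in mHep, by 0.81 (129S1-No1), 2.26 (C57B6-No1) and 1.40 (129S1-No2), but the arrays overlapped because eHep of 129S1-No1 was high. The mean was 2.59 ± 0.93 in mHep and 1.09 ± 1.43 in eHep (SD, n = 3 mice), a log2 difference of 1.49 ± 0.44 (adjusted p = 0.196).

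Rxra, the shared partner, was also above background everywhere. The tested probe read 2.82 to 6.0 with a median of 3.57 on the mHep arrays, against 2.05 to 4.03 with a median of 3.12 on the eHep arrays and 7.01 on the primary array. The mHep arrays of 129S1-No1 stood apart at 5.41 to 6.0, where no other cultured array passed 4.03. By mouse the log2 difference was 1.94 (129S1-No1), 0.28 (C57B6-No1) and 0.96 (129S1-No2), and the fit gave 1.06 ± 0.46 (adjusted p = 0.356). The second probe had a difference of 0.62 ± 0.44 (adjusted p = 0.597 over 22228 probes tested), with C57B6-No1 at -0.12.

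Rora had the smallest spread between mice of the 3 called members. Its level on the mHep arrays ran from -1.85 to 1.06 with a median of 0.71, against -4.41 to -1.95 with a median of -3.06 on the eHep arrays and 0.62 on the primary array. The mHep array C57B6-No1 replicate 1 was the lowest of its group by a wide margin, just above the highest eHep array. The differences by mouse were 3.89 (129S1-No1), 3.07 (C57B6-No1) and 3.09 (129S1-No2), with a fit of 3.35 ± 0.40 (adjusted p = 0.021). Without that array the fit was 3.60 (adjusted p = 0.0181). On the eHep side, the array of the earlier scan was the highest of the 3 from C57B6-No1, at -1.95 against -3.81 and -4.41.

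Nr3c1, the glucocorticoid receptor gene, did not pass the test. The tested probe read -1.76 to 1.47 with a median of 0.93 on the mHep arrays, against -1.10 to 1.37 with a median of -0.09 on the eHep arrays and 0.23 on the primary array. The mice disagreed in sign, at 1.58 (129S1-No1), 0.12 (C57B6-No1) and -0.43 (129S1-No2). The log2 difference was 0.42 ± 0.51 (adjusted p = 0.765). In eHep the arrays of the earlier scan read 0.92 and 1.37 and those of the later scan -1.10 to 0.02. In mHep the scans overlapped, at 0.86 and 0.93 against -1.76 to 1.47. Each 129S1 mouse kept to 1 scan, so for them mouse and scan cannot be told apart. Esr1, the estrogen receptor gene, was above background only on the 129S1-No2 array in mHep, at -4.51, on the 129S1-No2 and C57B6-No1 replicate 3 arrays in eHep, at -3.23 and -3.75, and on the primary array, at 0.53. The cultured arrays that showed Esr1 had all been scanned in the earlier of the 2 scans, together with the primary array, and the other array of that scan, mHep C57B6-No1 replicate 3, was dark at -6.48.

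**Figure D2:**
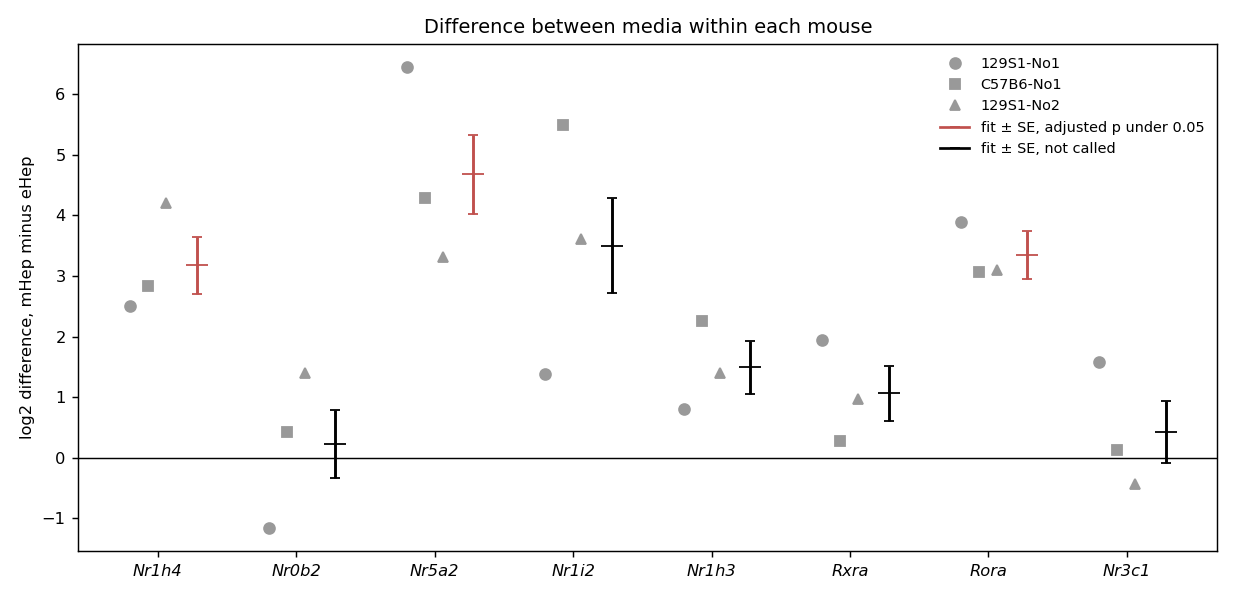
Log2 difference, mHep minus eHep, within each mouse (grey symbols) and from the fit with its SE, for the 8 receptors that could be tested. Nr1h4, Nr5a2 and Rora passed the threshold, and Nr0b2 and Nr3c1 have mice on both sides of 0.

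The arrays came from 2 scans, with C57B6-No1 in both and each 129S1 mouse in 1, so the medium was also compared within each scan. Slide and medium cannot be told apart within the 129S1 mice. Their eHep and mHep arrays lay on slides 3 and 4 for 129S1-No1 and on slides 2 and 1 for 129S1-No2. In C57B6-No1 only replicate 3 had both media on the same slide. Within the earlier scan (C57B6-No1 replicate 3 and 129S1-No2) the log2 difference was 3.53 for Nr1h4, 4.37 for Nr5a2, 2.87 for Rora and 5.13 for Nr1i2. Within the later scan (129S1-No1 and C57B6-No1 replicates 1 and 2) it was 2.63, 5.36, 3.64 and 2.80 in the same order. All 8 of these values had adjusted p of at most 0.0039, from single arrays as samples. The 3 calls rest on the mouse as a block: without it, 0 of 8 members passed, with adjusted p of 0.126 for Nr1h4, 0.245 for Nr5a2 and 0.102 for Rora, and 2 genes passed over the whole array. Under the scaling to probes detected on all arrays, 0 of 8 passed as well, at 3.29 (adjusted p = 0.0569), 4.8 (0.0956) and 3.46 (0.0574).

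Primary hepatocytes were the reference for how far culture had moved each receptor. The 1 primary array has no replicate, and its spread was assumed to be that of the cultured mouse means. Nr1i3, Nr0b2 and Esr1 were lower in mHep than on the primary array, by at least 252-fold, 116-fold and 37.7-fold. These 3 were 3 of 10 members, where 9.99% of the 15167 genes tested were called, 5.97% lower and 4.02% higher. In eHep, 8 of 10 members were lower, where 9.40% of all genes were lower and 5.61% higher. No member was higher than in primary cells in either medium. Nr1i3 and Esr1 passed the brightness limit only through the primary array, so they could only come out lower, and their counts lend no weight to a direction.

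In the bile acid group, Nr1h4 differed from the primary array by -0.81 ± 0.67 in mHep (adjusted p = 0.468) and by -3.99 ± 0.67 in eHep (adjusted p = 0.0111), where it was 15.8-fold lower. Nr5a2 differed by -1.99 ± 1.49 in mHep (adjusted p = 0.421) and by -6.67 ± 1.49 in eHep (adjusted p = 0.0291), at least 91.3-fold lower. Nr0b2 was lower in both, by -7.36 ± 1.62 in mHep (adjusted p = 0.0369) and -7.58 ± 1.62 in eHep (adjusted p = 0.0253), at least 116-fold and 125-fold. FXR and LRH-1 transcripts lay nearer to the primary array in mHep than in eHep, while the SHP transcript was far below it in both.

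Of the xenobiotic sensors, Nr1i2 differed by -2.51 ± 1.59 in mHep (adjusted p = 0.345) and by -6.01 ± 1.59 in eHep (adjusted p = 0.0499), at least 47.7-fold lower. Nr1i3 differed by -8.66 ± 0.65 in mHep (adjusted p = 0.00229) and -8.65 ± 0.65 in eHep (adjusted p = 0.00149), at least 252-fold and 238-fold lower. In both media CAR transcript was at the background limit. The fitted differences rest on dark readings, and the folds given as "at least" are approximate bounds.

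Nr1h3 was 9.82-fold lower in mHep, a difference of -3.30 ± 1.18 that was not called (adjusted p = 0.132), and 27.6-fold lower in eHep (-4.79 ± 1.18, adjusted p = 0.04). LXRα is also made by Kupffer cells. Of their 6 markers, Adgre1 and Clec4f were above background on the primary array and dark in culture, Cd68 was above background on all cultured arrays and not on the primary array, Csf1r was so on all 15, Vsig4 on 1 eHep array, Cd163 on none, and the summed level was higher on the primary array than on every cultured array. Their part in this difference was not tested. Rxra was 8.53-fold lower in mHep (-3.09 ± 1.18, adjusted p = 0.149) and 17.8-fold lower in eHep (-4.15 ± 1.18, adjusted p = 0.0606), not called in either. Rora differed by -0.43 ± 0.63 in mHep (adjusted p = 0.691) and by -3.78 ± 0.63 in eHep (adjusted p = 0.0108), at least 13.6-fold lower. Nr3c1 differed by 0.45 ± 0.91 in mHep (adjusted p = 0.783) and 0.03 ± 0.91 in eHep (adjusted p = 0.988). Esr1 differed by -6.57 ± 1.37 in mHep (adjusted p = 0.0317) and -5.22 ± 1.37 in eHep (adjusted p = 0.0491), at least 37.7-fold and 20.4-fold lower. A difference that missed the threshold does not show equal levels, since an SE of 0.63 to 1.62 leaves room for a several-fold change.

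**Figure D3:**
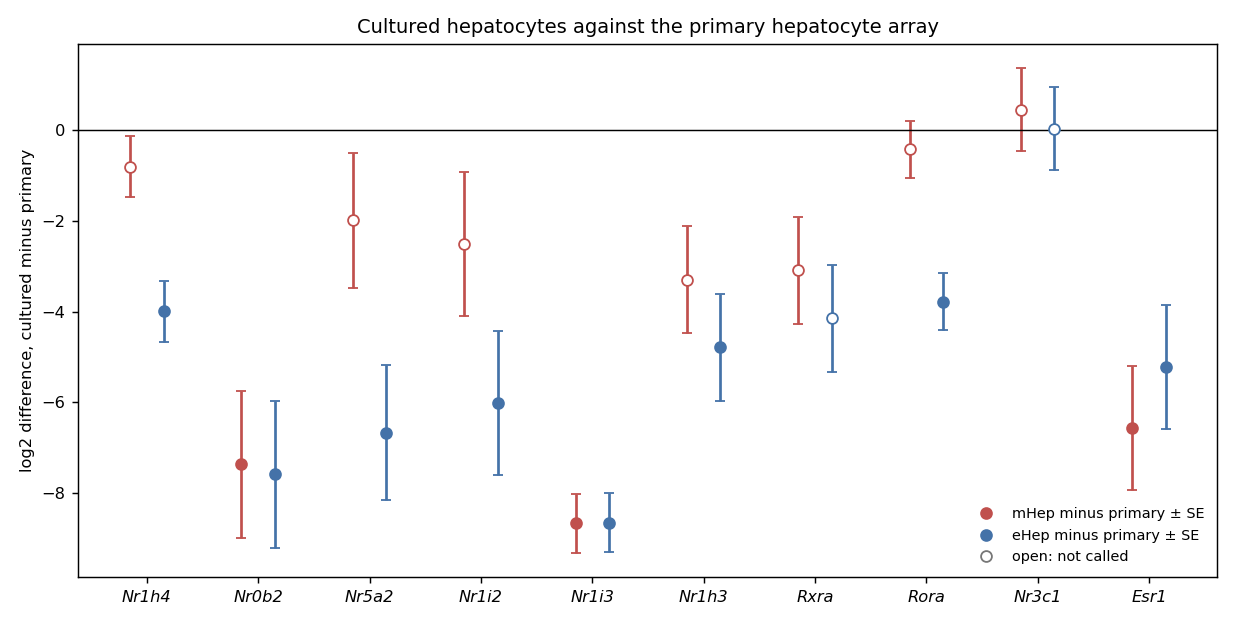
Log2 difference from the primary hepatocyte array for mHep (left of each pair) and eHep, with SE from the fit; filled points passed the threshold. Nr1h4, Rora and Nr3c1 in mHep lie within 1 log2 unit of the primary array, while Nr0b2, Nr1i3 and Esr1 lie far below it in both media, at fitted values that rest partly on dark readings.

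With all mice, the fitted difference from primary in eHep was -3.99 for Nr1h4 and -7.58 for Nr0b2. The number of calls against primary cells depended on the mouse C57B6-No1. Without it, 1 member was lower in mHep and 1 in eHep, Nr1i3 in each, and the whole array gave 102 and 430 calls in place of 1515 and 2276. The fitted differences in eHep then ran from -4.22 for Nr1h4 (adjusted p = 0.082) to -6.73 for Nr0b2 (adjusted p = 0.0686) over the bile acid group. Without 129S1-No1, 5 members were lower in mHep, where 951 of 15167 genes were. Without 129S1-No2, 4 members were lower in eHep, where 1179 of 15167 genes were. Within the earlier scan, which held the primary array, Nr1h4 differed by -0.59 in mHep and -4.12 in eHep, Nr0b2 by -8.38 and -9.12, and Nr1i3 by -8.54 and -8.88. On the slide of the primary array, the C57B6-No1 replicate 3 arrays read 4.31 in mHep and 1.45 in eHep for Nr1h4, against 5.06.

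The mice C57B6-No1 and 129S1-No1 had 3 arrays in each medium, which allowed a test of whether the medium difference itself differed between them. There was 1 such mouse per strain, so strain and mouse cannot be told apart, and the spread is that between arrays of a mouse. Nr1i2 differed more between media in C57B6-No1 than in 129S1-No1, by 4.12 ± 0.58 on the log2 scale (adjusted p = 0.00122). Rxra differed less, by -1.66 ± 0.43 (adjusted p = 0.0261). For Nr5a2 the fit gave -2.17 ± 0.56 (adjusted p = 0.0253), but all 3 eHep arrays of C57B6-No1 were dark, so the change of that mouse is only a lower bound and the direction is not settled. Of 8 members tested, 1 was higher and 2 lower, where 16.9% of 14596 genes were called, 10.7% higher and 6.17% lower. For Nr1h4 the difference of the changes was 0.32 ± 0.32 (adjusted p = 0.499) and for Rora -0.82 ± 0.96 (adjusted p = 0.558).

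The Nr1i2 result rests on the eHep arrays of C57B6-No1, at -5.30, -5.57 and -6.87, all dark, while the mHep arrays of C57B6-No1 read -0.17, -0.84 and -0.22. In 129S1-No1 the mHep arrays read 0.30, -0.74 and -0.45 and the eHep arrays -1.85, -1.70 and -1.50. The mHep levels of the mice overlapped and the eHep levels did not. When dark readings were set to the array's background limit, the difference of the changes was 2.81 (adjusted p = 0.00152), and with a model-based background correction (normexp) 1.32 (adjusted p = 0.106). When each of the 12 arrays was left out in turn, Nr5a2 lost its call in 4 cases, all of them arrays of 129S1-No1 (replicates 1 and 3 in each medium), with an adjusted p of up to 0.0684. Rxra lost its call in 7 cases, with arrays of both mice (replicates 1 and 3 of mHep and 1 and 2 of eHep in 129S1-No1, replicate 2 of mHep and 1 and 2 of eHep in C57B6-No1), with an adjusted p of up to 0.067. Of these mice only C57B6-No1 had an array in the earlier scan in each medium.

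4 members had more than 1 probe. For Rora, the probes at chr9:69226711-69226770 and chr9:69226611-69226670 (mm9) gave 3.43 ± 0.42 and 3.35 ± 0.40 between mHep and eHep (adjusted p = 0.0267 and 0.0246 over 22228 probes). The third, at chr9:69233105-69233164, gave 2.60 ± 0.46 (adjusted p = 0.0674) and was dark on all eHep arrays and on the primary array. The Rxra probes, at chr2:27615316-27615375 and chr2:27618411-27618470, were lower than primary by -2.92 and -3.09 in mHep and by -3.54 and -4.15 in eHep, none called. The 4 Nr3c1 probes differed by 0.17 to 0.69 between media and by -1.26 to 1.13 between mHep and the primary array, with signs that disagreed, and 2 of the 4 were dark on the primary array. Of the Esr1 probes, the one at chr10:5343056-5343115 was bright on the primary array, while the other, at chr10:5345046-5345105, was dark on all 15 arrays.

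**Figure D4:**
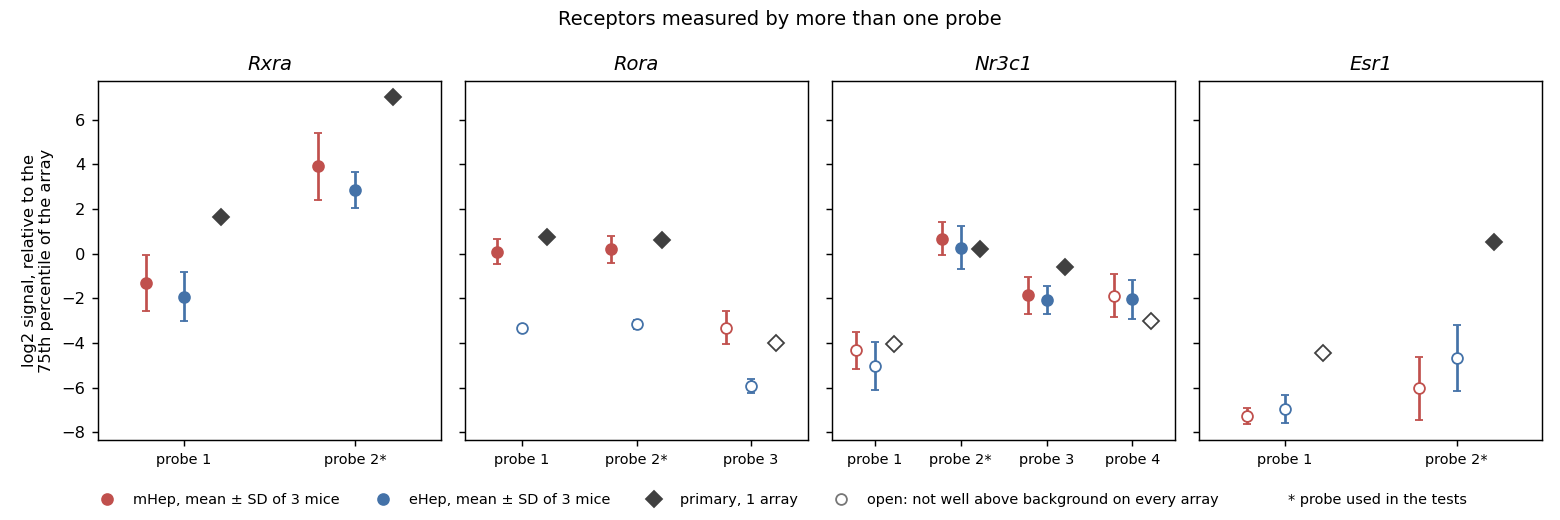
Level of each probe of the 4 receptors with more than 1 probe, as mean and SD over 3 mice for mHep and eHep and as the 1 reading of the primary array, with mHep leftmost. Asterisks mark the probe used in the tests and open symbols mark groups with at least 1 array not well above background. The 2 brighter Rora probes have the same pattern, and the Nr3c1 probes disagree on the side of the primary array.

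Known target genes of the receptors were followed as lists. Over all genes tested, 1.38% were higher in mHep than in eHep, the share to set beside each count between media. Among FXR targets, 4 of 9 tested were higher in mHep than in eHep and none lower: Baat, which conjugates bile acids (at least 50.1-fold, 7.39 ± 0.83, adjusted p = 0.0185), Slc51b, a subunit of the basolateral bile acid exporter (at least 19.3-fold, 5.75 ± 0.92, adjusted p = 0.0454), Fetub (47.7-fold, adjusted p = 0.0159) and Apoc2 (15.7-fold, adjusted p = 0.0319). The median of the 9 was 4.83, against -0.095 over all genes tested. Abcb11, the canalicular bile salt pump, and Cyp7a1 and Cyp8b1, enzymes of bile acid synthesis that SHP is known to repress, were too dim in both media to test. Slc27a5 and Slc10a1 were too dim as well. Too dim did not mean dark on every array. Abcb11 and Slc10a1 were above background on 3 mHep and 0 eHep arrays, Slc27a5 on 3 and 1, Cyp8b1 on 3 and 2, and Cyp7a1 on none. In mouse 129S1-No1, Abcb11 averaged -0.20 in mHep and -4.87 in eHep, and Slc27a5 1.89 and -4.88. Against the primary array, 4 of 14 FXR targets were lower in mHep, where 5.97% of all genes were: Slc27a5 by at least 3760-fold, Abcb11 by at least 977-fold, Cyp8b1 by at least 793-fold and Cyp7a1 by at least 91.3-fold. All 4 were among the genes too dim in both media, passed the brightness limit only through the primary array and could only come out lower. In eHep 10 of 14 were lower, where 9.40% of all genes were, and these 4 were among the 10. So was Slc10a1, which also passed the brightness limit only through the primary array and could only come out lower. The list holds Cyp7a1 and Cyp8b1, which SHP is known to repress, beside other targets, so these counts have no single reading.

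Targets of the other receptors were read in the same way. Of 12 PXR and CAR targets tested between media, 1 was higher, the bilirubin conjugating enzyme Ugt1a1 (4.32 ± 0.37, adjusted p = 0.00806). The median of the 12 was 0.96. Cyp3a11, dark on all eHep arrays, was higher in mHep by 11.05 (129S1-No1), 8.18 (C57B6-No1) and 1.57 (129S1-No2). Its fit of 6.93 ± 1.66 was not called (adjusted p = 0.122). Cyp2c37 went the other way, at -0.49, also not called. Against primary cells 1 of 13 of these targets was lower in mHep, Cyp2c37, where 5.97% of all genes were lower. In eHep 4 of 13 were lower, namely Cyp2c29, Cyp2c37, Ces2a and Ugt1a1, where 9.40% of all genes were. Of 12 LXR targets, 1 was higher in mHep than in eHep, the sterol transporter gene Abcg5 (at least 41.5-fold, 5.71 ± 0.73, adjusted p = 0.0275), which LRH-1 also regulates. Among LRH-1 targets, Abcg5 was the 1 higher of 5 tested between media, and the median of the 5 was -0.05, beside the higher level of Nr5a2. The lipogenic genes Srebf1 and Fasn were lower than primary in mHep, by -2.89 and -3.57, and Abca1, Abcg5, Abcg8 and Srebf1 were lower in eHep. Of 9 LRH-1 targets, 5 were lower than primary in mHep, where 5.97% of all genes were, and 7 in eHep, where 9.40% were. Cyp8b1 and Cyp7a1 in both media, and Abcg8 in eHep, passed the brightness limit only through the primary array. Gnmt, a methionine cycle enzyme that was above background on all arrays, was 1340-fold lower in mHep (adjusted p = 0.00658) and 4850-fold lower in eHep (adjusted p = 0.00338).

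Of 9 ROR and clock targets tested, 2 were higher in mHep than in eHep, Apoc3 (9.11 ± 1.23, adjusted p = 0.0305) and G6pc, the last enzyme of gluconeogenesis (6.69 ± 0.77, adjusted p = 0.019). Against the primary array, 2 of 11 were lower in mHep, Cyp8b1 and the clock factor Npas2 (at least 20.5-fold), where 5.97% of all genes were. In eHep 4 of 11 were lower, these 2 among them, where 9.40% of all genes were. Cyp8b1 and Npas2 were too dim in both media and passed only through the primary array, so they could only come out lower. Of 14 glucocorticoid receptor targets, 3 were higher in mHep than in eHep: G6pc, Igfbp1 (83.0-fold, adjusted p = 0.0318) and Fkbp5, a chaperone partner of the receptor (at least 12.8-fold, adjusted p = 0.0351), with a list median of 1.57. Against the primary array, 1 of 16 was lower in mHep, Tdo2, where 5.97% of all genes were lower. In eHep 8 of 16 were lower, where 9.40% of all genes were, Tdo2 and Sds among them. Tdo2 and Sds passed only through the primary array and could only come out lower. These changes stood beside no called difference in Nr3c1 itself. Of 2 estrogen receptor targets tested, none passed between media, with F12 at 5.42 ± 1.15 (adjusted p = 0.0909), and F12, dark on all eHep arrays, was at least 12800-fold lower than primary in eHep (adjusted p = 0.0167). Hepatocyte markers moved beside these lists, with 5 of 6 higher in mHep than in eHep and a median of 9.13, and their part in the lists was not tested.

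**Figure D5:**
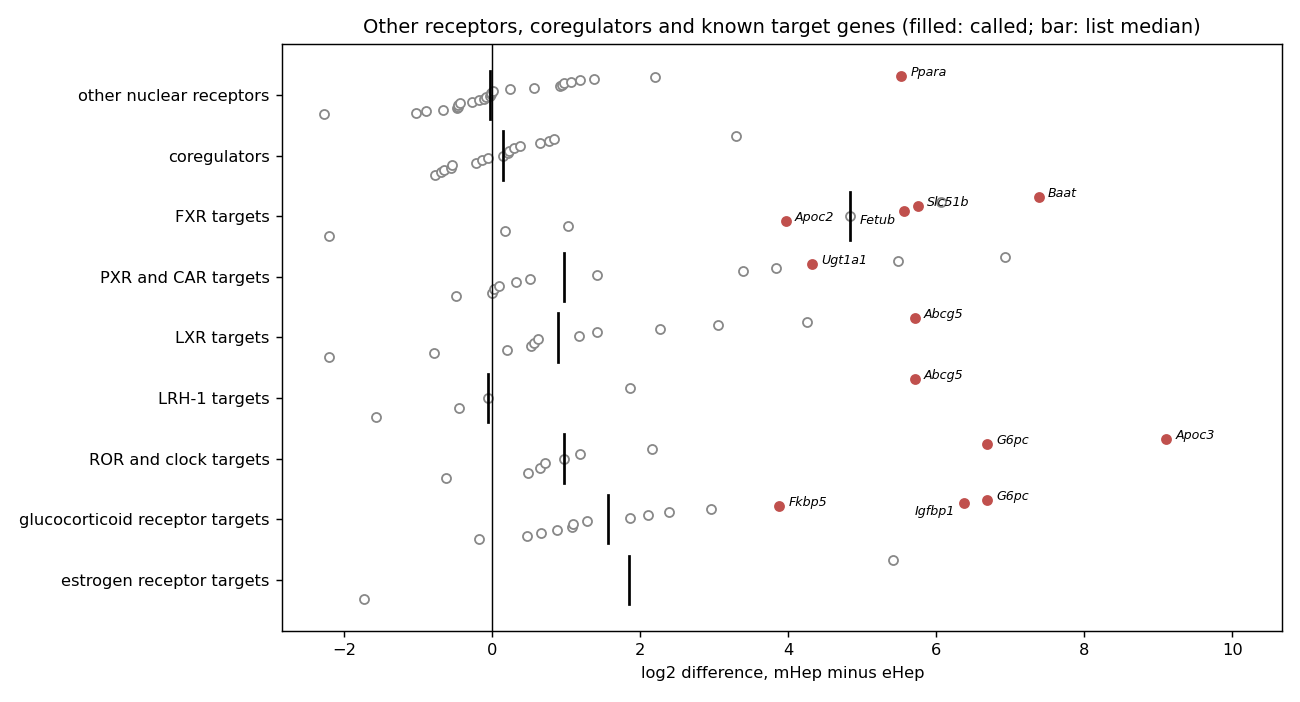
Log2 difference, mHep minus eHep, for every tested gene of 9 lists, with filled and named points for genes past the threshold and a bar at the median of each list. FXR targets have a median of 4.83 and 4 filled points, while the other nuclear receptors have a median of -0.03 and 1 filled point.

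Other nuclear receptors on the array were followed as a list. Of 39 on the array, 26 were bright enough to test between media and 1 was higher, Ppara, the fatty acid sensor of the liver, at 5.53 ± 0.65 (adjusted p = 0.0202) and at least 33.7-fold. The list median was -0.03. Lower than on the primary array in mHep were Rxrg (at least 168-fold), Nr4a1 (-3.49) and Nr2f6 (-2.95). In eHep Rxrg (at least 110-fold), Hnf4a (-3.38) and Nr2f6 (-2.69) were lower. Rxrg passed only through the primary array. Of 17 coregulators, none passed between media by limma, the nearest being Prox1, a corepressor of LRH-1 and HNF4α, at 3.29 ± 0.55 (adjusted p = 0.0519), and it alone was lower than primary in eHep (-4.37 ± 0.97, adjusted p = 0.0285).

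Genes whose levels ran most like those of a member were found over 7 values (3 mHep means, 3 eHep means and 1 primary array) among 12842 named genes. These points share mice and scans, so the correlations are a description. For Nr1i3 the cultured means lay between -5.91 and -4.67, against 3.22 on the primary array, so that array largely set r. The primary array also stood apart for Nr0b2 (-6.44 to -2.43 in culture, against 2.83) and Esr1 (-7.27 to -3.23, against 0.53). The closest were Sft2d3 for Nr1h4 (r = 0.9893), Abcg5 for Nr5a2 (0.9821), Setd6 for Nr1i2 (0.9907), Dbil5 for Nr1i3 (0.9929) and Dpf3 for Nr0b2 (0.9925). For the others they were Dnajb11 for Nr1h3 (0.993), Ccl9 for Rxra (0.9977), Tmem62 for Rora (0.9867), Pithd1 for Esr1 (0.9857) and Tut4 for Nr3c1 (0.9745). The glucocorticoid-induced gene Tsc22d3 was among the 3 closest to Rora (0.9862).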

How the data were processed

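Each of 15 arrays was a Cy3 scan of total RNA. Per the file headers, the authors' files came from Agilent Feature Extraction (protocol GE1_107_Sep09, versions 10.7.1.1 and 10.7.3.1), and probe positions are in mm9. The deposited processed signal is an intensity, background-subtracted and not scaled between arrays. The deposited value table holds log2 values whose scale behaves like quantile normalization (median 4.919 on every array, r with log2 processed signal 0.9722 to 0.9999). How the authors made it is not given in the sources used here.

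Spots of a probe were averaged without outlier spots, the array's 75th percentile was subtracted from log2 signals, and the probe with the highest mean was tested for each gene. Probes were named by RefSeq accession (27668), symbol (5589), older symbol (471) or as in the file (7446). Members, lists and tests were chosen with earlier results of these data known. A fold is a bound ("at least") where the lower group held a dark array. For it, readings below an array's lowest well-above-background signal took that value. That limit belongs to the dimmest probe so called on the array, and a dark reading of another probe can lie above it. The third Rora probe was dark at -5.57 on the eHep array of 129S1-No2, where the limit was -5.92. The bounds are therefore approximate, and a higher limit would give smaller folds.

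limma 3.58.1 in R 4.3.3 tested mHep against eHep on 6 mouse means with mouse as a block, each medium against the primary array on 7 values, and the mouse difference on 12 arrays. The fit against the primary array had no mouse term, so it left out the pairing of the media. Adjusted p-values are Benjamini-Hochberg, with a threshold of 0.05 and, against primary, a log2 difference of at least 1. Testing required a probe above background on every array of 2 or more mice in a medium or, against primary, on that array. The labels name the same mouse in both media, and deviations of a mouse in mHep and eHep correlated at 0.40, 0.56 and 0.54, against 0.0115 at most between mice. Deviations among only 3 mice are tied to each other, so the value between mice is no independent yardstick. Each 129S1 mouse also kept to 1 scan in both media, so these correlations cannot separate mouse from scan. Genes named were all members, up to 4 called per list and comparison (otherwise the 2 with the smallest p) and the 3 most like each member. Scripts were tested on simulated data. The number of arrays limits the precision. Promoter windows were read from RefSeq. Figures used matplotlib 3.10.9. A result on the list of other nuclear receptors is not reported here.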

Additional observations from a re-analysis of the deposited data

Results flagged for a closer look

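Over 20 groups of 7 arrays, 3 had an end reading far from the others by Dixon's test. The rate of about 1 in 20 by chance assumes independent readings. The 7 arrays of a group came from 3 mice over 2 scans, so that rate is no yardstick here. In mHep, Rora was lowest on C57B6-No1 replicate 1, at -1.85 with the next array at 0.03, a gap of 0.647 of the range. On the same array Nr3c1 was lowest, at -1.76 with the next at 0.38 and a gap of 0.663 of the range. That array correlated at 0.937 with the other mHep arrays of its mouse, against 0.96 and 0.935 for those arrays, and leaving it out changed no call between mHep and eHep or against primary. Nr1i3 was highest in mHep on the 1 array of 129S1-No2, at -4.67 with the next at -5.46 and a gap of 0.588. These readings were all near the background limit.

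The medium difference of 3 members differed between C57B6-No1 and 129S1-No1 by the interaction in limma. It was larger in C57B6-No1 by 4.12 for Nr1i2, and smaller by a difference of -1.66 for Rxra. The fitted difference for Nr5a2 was -2.17, with no settled direction, because the C57B6-No1 eHep arrays were dark. They were dark for Nr1i2 too, where the C57B6-No1 change is a lower bound.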

How the results depend on the processing

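Between mHep and eHep, 3 members were higher in the main analysis. The count was 0 with the 75th percentile of detected probes, 1 with quantile normalization, 1 with the authors' deposited table, 2 with normexp, 0 with no replicate block for the mouse, 6 with 14 arrays as samples, 5 with slide as a block, 6 with scan as a block, 5 in arrays of the earlier scan and 6 in those of the later one. Over all genes there were 267 calls, against 105 with detected probes, 110 with quantile normalization or the authors' table, 176 with normexp, 658 with no filter, 2 without the mouse block, 5024 with 14 arrays, 3006 and 6176 with slide and scan as a block, 1519 and 7346 within the earlier and later scan, and 831, 513 and 655 without 129S1-No1, C57B6-No1 and 129S1-No2. The share that was higher moved from 75.3% to 91.4% with detected probes and 85.5% with quantile normalization. Most calls were lower in mHep with 14 arrays (38.5% higher), with slide (35.7%) or scan (37.6%) as a block and within the later scan (36.6%). Against primary it moved from 40.2% to 53.9% and 61.4% for mHep, and from 37.4% to 47.7% and 56.7% for eHep. These scalings moved the median of all genes to 0.246 and 0.234 for mHep minus primary, in place of -0.335, and to 0.279 and 0.324 for eHep minus primary, in place of -0.189, and those of the difference between mice to -0.018 and 0.06, in place of 0.254. Against primary, 8827 genes were called for mHep and 8498 for eHep with no filter, 4057 and 4958 with C57B6-No1 alone, 3996 and 5488 within the earlier scan, and 954 for mHep with normexp. Between the mice, 2462 genes were called, against 649 with normexp, 4119 with a replicate block and 1368 to 4850 without single arrays.

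Members lower in mHep than primary, 3 in the main analysis, ran from 1 (without C57B6-No1) to 5 (without 129S1-No1) when a mouse was left out, and were 7 with C57B6-No1 arrays alone and 5 within the earlier scan. Members lower in eHep, 8 in the main analysis, were 5 with quantile normalization, 5 with the authors' table, 1 without C57B6-No1 and 4 without 129S1-No2. Over all 15167 genes tested, 906 were lower in mHep in the main analysis and 951 without 129S1-No1. That number was 69 without C57B6-No1, 2295 with C57B6-No1 alone and 2518 within the earlier scan. Lower in eHep were 1425 genes in the main analysis, 1297 with quantile normalization and 1298 with the authors' table. Without C57B6-No1 it was 302, and without 129S1-No2 1179. Between the mice, 1 member changed more in C57B6-No1. That count was 2 with quantile normalization, 0 with normexp, 2 with the authors' table, 3 with a replicate block on array number, and 1 to 3 without single arrays. Of the 2 that changed less, 1 was left with normexp, 1 with the mean of all probes and 0 to 2 without single arrays.

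Signs turned for values that were not called. Rora in mHep minus primary was 0.15 with detected probes, and Nr1h4 there 0.32 with quantile normalization and with the authors' table. Nr3c1 in eHep minus primary was -0.36 with the mean of all probes, -0.52 without 129S1-No2 (0.31 without 129S1-No1) and -0.52 with C57B6-No1 alone, and in mHep minus primary -0.40 with C57B6-No1 alone. Between media, Nr3c1 was -0.25 within the earlier scan and ran from -0.16 (without 129S1-No1) to 0.85 (without 129S1-No2). Nr0b2 was -0.11 with 14 arrays, -0.02 with slide as a block, -0.11 with scan as a block and -0.45 in the later scan, and ran from -0.36 (without 129S1-No2) to 0.91 (without 129S1-No1). The cause was not tested. The fits within the scans against primary, with scan as a block, with raised readings, without mHep C57B6-No1 replicate 1 and with each probe tested were chosen after seeing the data. Readings at the background limit, Nr1i3 and Esr1 in culture above all, give bounds only.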
